A study of Homo sapiens with 2 samples.

Results

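Unspliced transcript models that lie inside introns were described in HCT116, a human colorectal carcinoma cell line. The models were those on chromosomes 1 to 22 that the assembly program had built itself, that had 1 exon, at least 300 bases and an FPKM above 0, and that lay wholly in an intron of a protein-coding RefSeq transcript (NM_) without touching an exon of any NM_ or non-coding (NR_) RefSeq transcript on either strand. There were 4957 such models in the library labelled USP49 knockdown and 4696 in the control library. They belonged to 13327 unspliced models of the same minimum length in the library labelled knockdown and 12206 in control, and to 41365 and 40028 models of every kind with an FPKM above 0. Assembly and FPKM chose the models, so their number and presence are given as a description, with no test.

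The study compared gene expression in 1 library of each kind, made from poly(A) RNA of HCT116 cells that carry a tetracycline-inducible construct against USP49 (T-Rex system). The library labelled USP49 knockdown was taken 36 h after doxycycline. The control library has the treatment label control and the same treatment text, which does not say whether its cells received doxycycline. Both groups come from cells with the construct, grown with blasticidin and puromycin, and the labels do not say whether the cells are 1 clone. USP49 takes ubiquitin off histone H2B, a function tied to pre-mRNA splicing.

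Introns are transcribed together with the exons and are cut out by the spliceosome, mostly while transcription still runs. The excised intron is usually degraded quickly, so RNA selected for a poly(A) tail holds far less intron than exon sequence. RNA that is assembled inside an intron may belong to unspliced pre-mRNA, to an intron kept in the mature mRNA, or to a separate transcript that starts or ends there, and a model in an unstranded assembly does not tell these apart.

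The library labelled knockdown held 19978906 fragments and the control library 16393994, a ratio of 1.22. Levels are given below as fragments per kilobase of model, divided by the fragments of the library in units of 1e6, and the level of a host gene is the same density on its RefSeq exons. On the RefSeq exons of USP49, a minus-strand gene of chromosome 6 (41873361 to 41971077), the library labelled knockdown had 69 fragments and the control library 46.5, a ratio of levels of 1.22 with an exact interval of 0.82 to 1.78. The RefSeq model of USP49 itself was at 1.103 in the library labelled knockdown and was listed at 0 in control, where assembled models carried the gene. These values do not settle the label, and directions below refer to the library by its label. No USP49 intron held a model in either library. Of 8 colon epithelial markers, 6 stood at a level of 1 or more in both libraries. EPCAM, an epithelial adhesion protein, stood at 144 in the library labelled knockdown and 151 in control, KRT19, a keratin, at 286 and 319, and the villin gene VIL1 at 0 in both. COL1A1, a collagen chain, was the only 1 of 4 fibroblast genes at 1 or more, at 6.50 and 6.83, and none of 3 leukocyte and 3 endothelial genes was. In such bulk libraries, fewer cells with an RNA and less of it per cell cannot be told apart. Each group has 1 library, so nothing below is checked by replicates, and all intervals are exact 95% intervals for counting error only.

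The models were short and sparsely covered in both libraries. Their median length was 691 bases in the library labelled knockdown and 704 bases in control, and their median number of fragments was 19 and 18. The middle of the distribution ran from 13 fragments at the lower quartile to 34 at the upper quartile in the library labelled knockdown, and from 13 to 32 in control. The deepest model held 1667 fragments in the library labelled knockdown and 1382 in control, and 17 and 16 models held fewer than 10. All models together held 0.887% of the fragments of the library labelled knockdown and 0.939% of those of control. The median level was 1.46 in the library labelled knockdown (interval 1.43 to 1.49) and 1.699 in control (1.66 to 1.73). The library with fewer fragments had the higher median level. Nearly all models held 10 or more fragments, and a given number is a higher level in the smaller library. The order of the medians is therefore not read as a difference in RNA.

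The length minimum fell within a run of short models. Between 300 and 319 bases there were 124 models in the library labelled knockdown and 106 in control, and between 280 and 299 bases, just outside the rule, 95 and 81. The shortest 3 models inside it had 300 bases and 12, 17 and 32 fragments in the library labelled knockdown, and 300 to 301 bases and 10, 10 and 12 fragments in control. The longest 3 outside it had 299 bases, with 10, 15 and 11 fragments in the library labelled knockdown and 12, 25 and 24 in control.

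Strand was rarely known. Only 57 models of the library labelled knockdown and 46 of control carried a strand, and none of these had the strand of its host gene. Whether the assembly gives a strand to such a model only where it differs from that of the host could not be checked, so these counts are not read as a measurement of antisense RNA.

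About as many models overlapped between the libraries as did not. Of the models of the library labelled knockdown, 2304 (46.5%, interval 45.1 to 47.9) shared at least 1 base with an intronic unspliced model of control. Of the control models, 2311 (49.2%, interval 47.8 to 50.7) shared a base with one of the library labelled knockdown. Asking that the overlap cover 50% of each model lowered the shares to 30.9% and 32.6%. A further 160 models of the library labelled knockdown and 183 of control met only an unspliced model that broke the rule, by touching an exon for example. Only a spliced assembled model lay over 201 and 243, and no assembled model at all over 2292 (46.2%) and 1959 (41.7%). An empty place in one assembly is not a count of 0 fragments, since the files hold models and not reads. The same shares were not taken for unspliced models at other positions. The overlap is therefore not read as particular to models inside introns.

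The share met again grew with the number of fragments. At 10 to 14 fragments it was 25.1% in the library labelled knockdown and 34.0% in control, and at 20 to 39 fragments 55.4% and 57.1%. At 40 to 99 fragments it was 72.5% in the library labelled knockdown and 69.1% in control. With 100 or more fragments it did not grow further, at 73.5% of 275 models in the library labelled knockdown and 66.5% of 218 in control. Models that were met again had a median of 27 fragments, against 15 for the others, in the library labelled knockdown, and 22.8 against 15 in control. They also lay in longer introns, with a median of 8379 bases against 5809 in the library labelled knockdown and 8451 against 5322 in control.

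**Figure D1:**
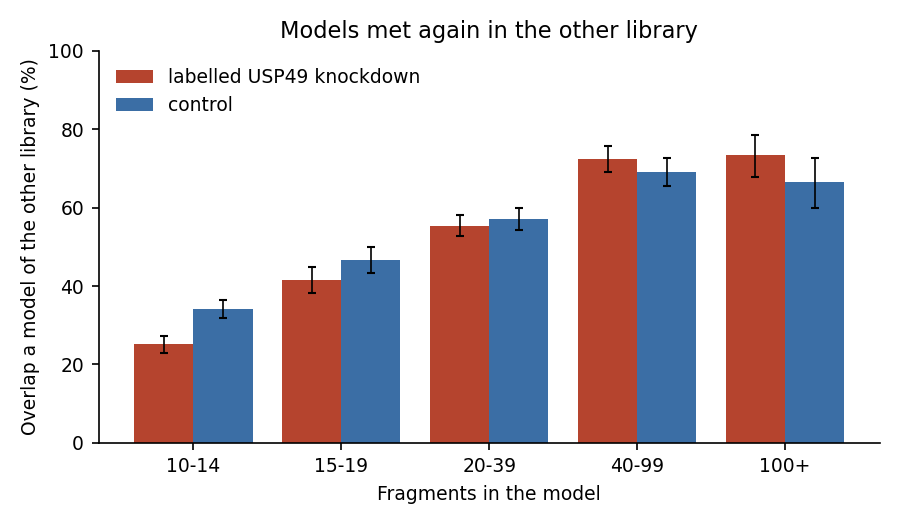
Share of intronic unspliced models that overlap one of the other library (y axis, percent) by the number of fragments in the model (x axis), with the library labelled USP49 knockdown left of control; bars are shares and lines exact 95% intervals for counting error. The share is 25.1% and 34.0% at 10 to 14 fragments and 72.5% and 69.1% at 40 to 99 fragments.

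Model ends differed between the assemblies even where the models overlapped. Of 1456 pairs of a single model in each library, 88 (6.04%) had both ends within 10 bases of each other, and the median distance between matching ends was 90.5 bases. Among 277 pairs with 100 or more fragments, 46 (16.6%) had both ends within 10 bases, and the median distance was 39 bases. Joining all overlapping models gave 6845 regions, of which 1945 had a model in both libraries, 2578 only in the library labelled knockdown and 2322 only in control.

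The regions lay in 3144 host genes of 17239 with an NM_ intron of 300 bases or more. There were 2374 hosts in the library labelled knockdown and 2310 in control, and 1540 were shared, which is 64.9% of the hosts of the library labelled knockdown and 66.7% of those of control. A single region lay in 1584 hosts (50.4%), and 28 hosts had 10 or more. Host genes were therefore met again more often than the models themselves.

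Host genes were mostly expressed at a middle level. The median host level over models was 8.99 in the library labelled knockdown and 9.55 in control. Taken as the sum of the host's own RefSeq models it was 5.46 and 5.86, a sum that leaves out fragments on assembled models. Over genes, hosts had a median level of 9.28 in the library labelled knockdown and 9.62 in control, against 5.33 and 5.43 for all genes with such an intron. Among genes at a level of 1 or more the order was the other way, with a median of 10.6 for hosts and 16.0 for other genes in the library labelled knockdown, and 10.7 and 15.9 in control. Hosts at this level also had more intron, with a median of 37655.5 bases in the library labelled knockdown and 36561 in control, against 23323 and 23468.5 bases in genes without a model.

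The share of genes with a model was highest at levels of 3 to 10. It was 27.5% there in the library labelled knockdown and 27.1% in control, and 22.7% and 22.5% at levels of 10 to 30. Below a level of 0.1 it was 1.64% in the library labelled knockdown and 1.40% in control. At 30 to 100 it was 8.26% and 8.19%, and at 100 or more 1.83% and 2.51%. Genes at high levels had less intron in all, and per megabase of intron the peak lay at levels of 10 to 30, with 8.79 models in the library labelled knockdown and 8.71 in control. At 30 to 100 the density was 4.62 and 4.46 models per megabase, and at 100 or more 1.58 and 1.67. The part of the assembly program in this fall at high levels was not tested.

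**Figure D2:**
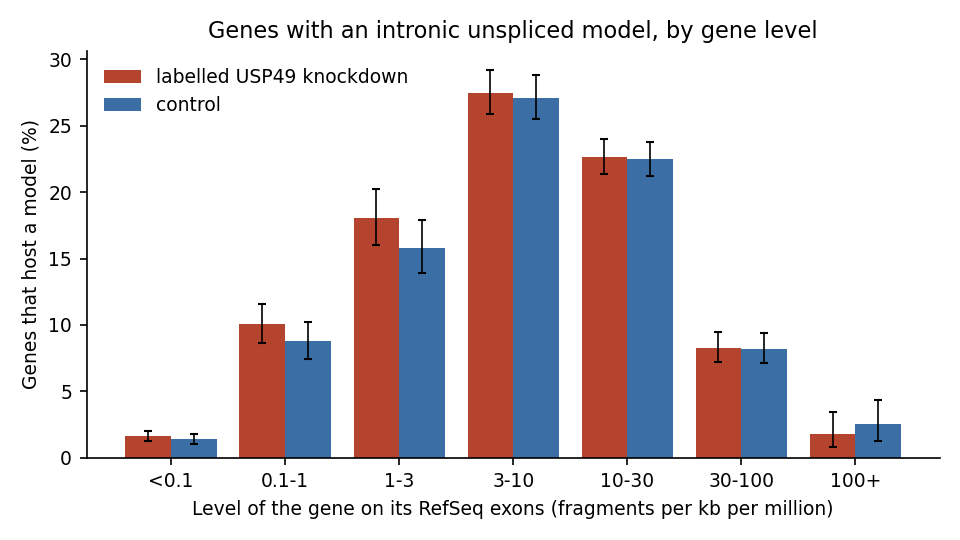
Share of genes with an intronic unspliced model (y axis, percent) by the level of the gene on its RefSeq exons (x axis, as the level defined above), with the library labelled USP49 knockdown left of control and exact 95% intervals for counting error. The share is highest at levels of 3 to 10, at 27.5% and 27.1%, and is 1.83% and 2.51% at levels of 100 or more.

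Models were weaker than the exons of their hosts in most cases. For hosts at a level of 1 or more, the model stood at a median of 15.6% of the host level in the library labelled knockdown and 17.0% in control. The assembly program chose which models appear beside a host, and its part in this share and in the correlations below was not tested. Across models, which share library and depth and are not independent, model and host level were correlated with a Spearman rho of 0.52 in the library labelled knockdown and 0.51 in control, over 4893 and 4643 models whose host had fragments. The model exceeded its host for 577 models (11.6%) of the library labelled knockdown and 510 (10.9%) of control. The host stood below a level of 1 for 78.3% of these in the library labelled knockdown and 72.4% in control. The lower quartile of all model levels was 1.04 in the library labelled knockdown and 1.19 in control. Most models therefore exceed any host below a level of 1, and these shares are not read as a trait of such hosts. Models above their host were met again in 58.8% and 67.5% of cases, against 44.9% and 46.99% of the others.

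Most host introns were longer than the typical intron. Counted once per model, the median host intron had 6827 bases in the library labelled knockdown and 6576 in control. An intron with several models thus counts more than once, and hosts below a level of 1 are included, so the comparison is not like for like. The median of all introns of 300 bases or more in genes at a level of 1 or more, each counted once, was 2089 and 2088 bases. Of these introns 2.72% held a model in the library labelled knockdown and 2.64% in control. The share was larger in longer introns, from 0.223% and 0.217% below 1 kb to 9.13% and 7.13% above 100 kb. Per megabase of intron the order differed. The density was 3.61 models per megabase in the library labelled knockdown and 3.53 in control below 1 kb, 15.2 and 14.6 at 3 to 10 kb, and 1.13 and 0.851 above 100 kb. A model of 300 bases or more has little room in an intron below 1 kb.

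Order in the gene was compared over all lengths and then within 1 class of length and level. Over all lengths, in genes at a level of 1 or more, middle introns held most models, 2861 in the library labelled knockdown and 2787 in control, against 945 and 920 in first introns and 551 and 516 in last introns. Per megabase, first introns had 6.79 models in the library labelled knockdown and 6.60 in control, middle introns 6.89 and 6.71, and last introns 15.4 and 14.4, so the density of first introns was not above that of middle introns. First introns were longer, with a median of 4960.5 and 4941.5 bases, against 1976 and 1973 for middle introns. Among introns of 3 to 10 kb in genes at levels of 3 to 30, a class chosen after the values by intron length had been seen, 9.47% of first introns, 4.45% of middle introns and 9.27% of last introns held a model in the library labelled knockdown. In control the shares were 8.86%, 4.44% and 8.44%. Per megabase, first introns had 31.1 models in the library labelled knockdown and 31.5 in control, middle introns 14.4 and 14.3, and last introns 30.6 and 26.3. The intervals of the shares for first introns (8.06% to 11.05% and 7.49% to 10.4%) and last introns (7.76% to 10.96% and 7.02% to 10.0%) lay above those for middle introns (4.12% to 4.80% and 4.11% to 4.78%). The median exon level of the genes was close in all 3 classes, between 11.4 and 12.2.

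**Figure D3:**
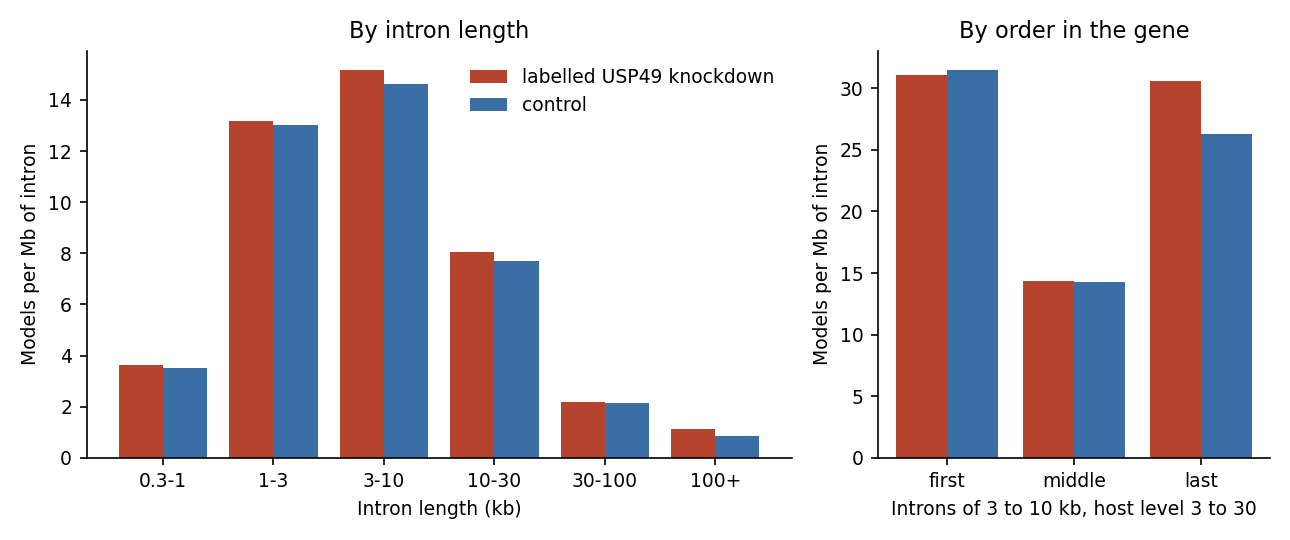
Intronic unspliced models per megabase of intron (y axes) by intron length in kb for genes at a level of 1 or more (left panel) and by order in the gene for introns of 3 to 10 kb in genes at levels of 3 to 30 (right panel), with the library labelled USP49 knockdown left of control; bars are single values with no replicate error. Density is highest at 3 to 10 kb (15.2 and 14.6), and first and last introns stand above middle introns (14.4 and 14.3).

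Within introns the models were spread nearly evenly. The median midpoint lay at 49.5% of intron length from the 5′ end in the library labelled knockdown and at 50.2% in control. In introns of 10 kb or more the upstream 50% held 51.4% of 1779 models in the library labelled knockdown and 50.3% of 1662 in control. Each of 10 equal bins of the intron held between 7.81% and 11.7% in the library labelled knockdown and between 7.46% and 11.9% in control. Order in the gene went with position in introns of 3 kb or more. The upstream 50% held 57.1% of models in first introns of the library labelled knockdown (interval 53.8 to 60.4) and 57.5% in those of control (54.1 to 60.7). In last introns the shares were 46.2% in the library labelled knockdown (41.7 to 50.8) and 44.1% in control (39.2 to 49.0). The interval for last introns of the library labelled knockdown thus includes 50%. These intervals count models of the same intron as independent, so they can be too narrow.

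**Figure D4:**
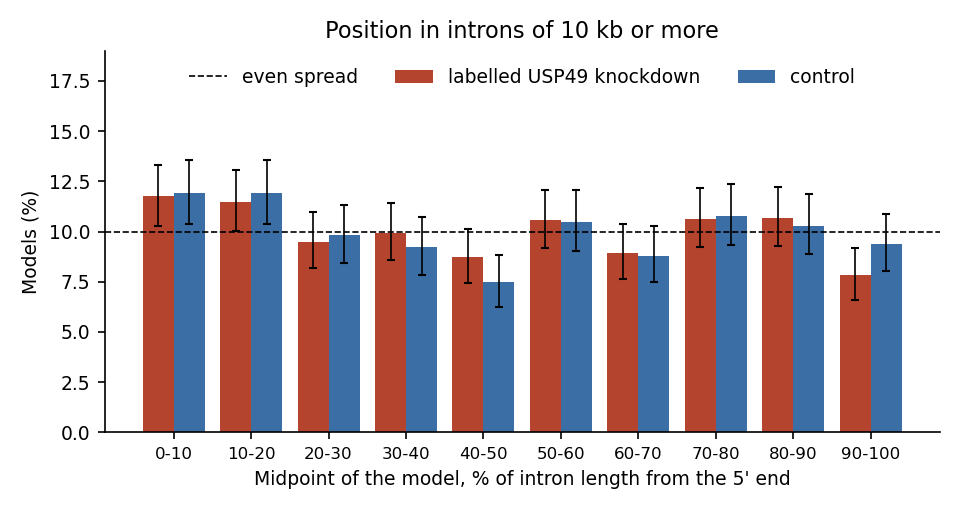
Share of intronic unspliced models in introns of 10 kb or more (y axis, percent) by the position of their midpoint in 10 equal bins from the 5′ end of the intron (x axis), with the library labelled USP49 knockdown left of control, exact 95% intervals for counting error and a dashed line at an even spread of 10%. Bins range from 7.81% to 11.7% in the library labelled knockdown and from 7.46% to 11.9% in control.

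Few of the models kept by the rule lay close to an exon or filled their intron. A model that ran across an intron boundary touched a RefSeq exon and was left out, so the rule itself limits these counts. Unspliced models that touched a RefSeq exon, at any place, numbered 1435 in the library labelled knockdown and 1367 in control. The median distance to the nearest RefSeq exon was 1140 bases in the library labelled knockdown and 1080.5 in control. Within 100 bases of an exon lay 330 models (6.66%) of the library labelled knockdown and 394 (8.39%) of control. At least 90% of the intron was filled by 17 models in the library labelled knockdown and 20 in control. The examples below are the deepest of each library, by a rule added after the values had been seen. In the library labelled knockdown the deepest was in PKM, the pyruvate kinase of most tissues, where a model at 70280051 to 70281848 on chromosome 15 filled all 1798 bases of intron 8 with 642 fragments. That is a level of 17.9, against 357 on the PKM exons, and the control library had no assembled model there. In ZNF598, a ubiquitin ligase of stalled ribosomes, a model filled 90.9% of intron 1 with 547 fragments in the library labelled knockdown, and control had a shorter model with 316. In control the deepest was in PCBP4, a poly(C)-binding protein, where a model filled 97.9% of intron 1 with 319 fragments, and the library labelled knockdown had a model with 280. CIC, a transcriptional repressor, had a model over 92.7% of intron 1 with 127 fragments in control and none in the library labelled knockdown.

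Several of the 10 deepest shared regions had close levels in both libraries. The counting interval of the ratio, library labelled knockdown over control, lay below 1 for ALDH1A3 (0.76, 0.67 to 0.86) and FMO5 (0.78, 0.69 to 0.87). It also lay below 1 for REEP3 (0.83, 0.75 to 0.93), and above 1 for HFM1 (1.09, 1.004 to 1.179). In ANKRD10, which encodes an ankyrin repeat protein, a model in intron 3 of 5 on chromosome 13 at 110345901 to 110349116 held 1667 fragments in the library labelled knockdown and 1382 in control, levels of 26.1 and 26.2. In CHCHD3, a subunit of the complex that shapes mitochondrial cristae, intron 2 held 1384 fragments in the library labelled knockdown and 1152 in control, levels of 46.2 and 46.0. Both models lay in genes with exon levels of the same order, 38.0 and 36.4 for ANKRD10 and 24.7 and 25.4 for CHCHD3. PDE8B, a cyclic AMP phosphodiesterase, had a model in its intron 1 of 100729 bases with 841 fragments in the library labelled knockdown and 701 in control. These were levels of 28.9 and 29.3, against 0.844 and 1.28 on the exons of PDE8B.

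The highest level of all was in HFM1, a helicase of meiosis. A model of 370 bases in the library labelled knockdown and 371 in control, in intron 4 on chromosome 1 at 91625367 to 91625737, held 1408 and 1065 fragments. Its level was 190 in the library labelled knockdown and 175 in control, against 0.231 and 0.186 on the HFM1 exons. FMO5, a flavin-containing monooxygenase, also had little on its exons, at 0.0157 and 0.115, with 623 fragments in intron 6 in the library labelled knockdown and 548 in control. The levels of this FMO5 region were 19.4 in the library labelled knockdown and 24.9 in control. Whether the fragments in such introns belong to the host was not tested, and most of these models have no strand.

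The other 5 of the 10 deepest shared regions follow. H2AZ2, a histone H2A variant, had 716 fragments in its last intron in the library labelled knockdown and 626 in control, at levels of 15.4 and 14.5. REEP3, which clears endoplasmic reticulum from mitotic chromosomes, had 673 fragments in intron 5 in the library labelled knockdown and 664 in control, at levels of 5.74 and 6.90. PSME3IP1, a partner of the proteasome activator PA28-gamma, had 702 and 609 fragments in intron 1, at levels of 14.2 and 14.03. The locus TMEM276-ZFTRAF1 had 676 and 543 fragments at levels of 4.88 and 4.87. ALDH1A3, an enzyme that makes retinoic acid, had 351 fragments over 808 bases in its last intron in the library labelled knockdown and 1197 over 2558 bases in control, at levels of 21.7 and 28.5. The ALDH1A3 models thus differ in length, and most of the shorter one lies on the longer one.

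Level ratios were taken over 1944 shared regions with 20 or more fragments over both libraries. The median log2 ratio of the library labelled knockdown over control was −0.13 (interval −0.14 to −0.11), and 65.1% of regions lay below 0. Unspliced models of all positions, 6331 regions, had a median of −0.12, those in neither introns nor exons −0.13, and those that touch an exon −0.08. The RefSeq exons of 12225 genes had a median of −0.0053, and the exons of the 1203 hosts of these regions −0.013. The exon medians also lay below 0, but by much less, with intervals of −0.0087 to −0.0025 for all genes and −0.024 to −0.0037 for hosts. The lower median of unspliced models was seen at every position. It stood beside the 1.22 times larger number of fragments in the library labelled knockdown, whose part in it was not tested, and it was −0.08 for the 569 regions with 100 or more fragments and −0.11 for the 579 with model lengths within 10%.

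Few shared regions passed 2-fold. There were 5 (0.257%) 2-fold or more higher and 23 (1.18%) 2-fold or more lower in the library labelled knockdown. Among unspliced models of all positions 0.964% were higher and 2.1% lower, and among RefSeq exons 0.589% and 0.859%. Among unspliced models in neither introns nor exons 0.517% were higher and 1.88% lower, and among those that touch an exon 5.34% and 6.55%. The share in introns was below that of all unspliced models in both directions, but that set includes the intronic and the exon-touching models. The difference is therefore not read as particular to introns. With the deposited FPKM scaled to the library totals, in place of fragments per full length, 62 were higher and 115 lower. That value divides by a shortened length, and it was averaged over the models of a region with their fragments as weights. The part of each change was not tested. The counting interval of the ratio lay above 1 for 31 regions and below 1 for 84, among them 5 and 17 of those past 2-fold. Such counts were not taken for unspliced models of all positions or for exons. No allowance was made for the number of intervals, some of which miss by counting error alone. The counts are therefore not read as numbers of regions that differ. Across 1900 regions with fragments on the host's exons, the levels in the libraries were correlated with a Pearson coefficient of 0.93 and a Spearman coefficient of 0.90. The ratio of a region and the ratio of its host's exons had an r of 0.0076 and a rho of 0.043, a description over regions that share both libraries.

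**Figure D5:**
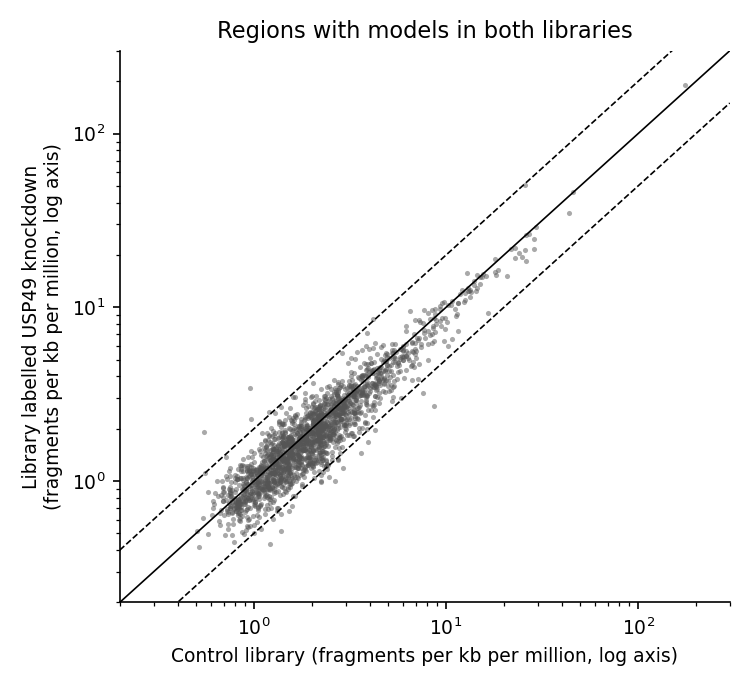
Level of each shared region with 20 or more fragments in the library labelled USP49 knockdown (y axis) against control (x axis), both in the level defined above on log axes; each point is 1 region, the solid line marks equal levels and the dashed lines 2-fold. Most points lie between the dashed lines, with 5 regions at 2-fold or more higher and 23 lower.

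The highest ratio among regions with 50 or more fragments was in TSNARE1, a protein with a t-SNARE domain. Its intron 12, on chromosome 8 at 143348748 to 143351305, had 176 fragments in the library labelled knockdown and 36.3 in control, at levels of 3.44 and 0.951. The ratio was 3.62 (interval 2.54 to 5.38), while the TSNARE1 exons stood at 2.67 and 2.66. GLIPR1L1, of the CAP protein family, had 91.2 fragments in intron 1 in the library labelled knockdown and 20.4 in control, a ratio of 3.49 (2.17 to 6.08), with exon levels of 0.541 and 0.611. TARBP1, a tRNA methyltransferase, had 364 fragments in intron 23 in the library labelled knockdown and 136 in control, a ratio of 2.06 (1.69 to 2.53), with exons at 7.17 and 7.25. In these 3 genes the model lengths differed by little, and the exon levels of each gene were close in the libraries. In each of the 3 regions the fragment number was not whole in at least 1 library. Such a number was worked out from the deposited FPKM, and its interval treats it as a rounded count. How far these ratios depend on the way fragments were divided among models was not tested.

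The next 3 were below 2-fold. GOLGA3, a golgin, had 566 fragments in each library over 561 bases in the library labelled knockdown and 1338 in control, a ratio of 1.96 from models of unequal length. TOP6BL, needed for meiotic DNA breaks, had 61 fragments in the library labelled knockdown and 19 in control (ratio 1.93, 1.14 to 3.42). WLS, which carries Wnt proteins to the cell surface, had 42 and 26 over 385 and 554 bases (1.91, 1.14 to 3.24).

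In 4 of the 6 regions with the lowest ratios the model was shorter in the library labelled knockdown. The lowest was a second region of PSME3IP1 intron 1, with 25 fragments over 461 bases in the library labelled knockdown and 374 over 2623 bases in control, a log2 ratio of −1.68. TTC3, a ubiquitin ligase, had 13 fragments over 648 bases in the library labelled knockdown and 84 over 1949 bases in control (−1.39). CCDC14, a centriolar satellite protein, had 30 over 468 and 111 over 894 bases (−1.24), and MCRIP2 13 over 386 and 81 over 1263 bases (−1.21). In ATP8B1, a phospholipid flippase, and GTPBP1, a GTP-binding protein, the model was longer in the library labelled knockdown. ATP8B1 had 25.3 fragments over 1060 bases there and 39 over 819 bases in control, a ratio of 0.41 (interval 0.24 to 0.69), and GTPBP1 34 over 869 and 24 over 345 bases (0.46, 0.27 to 0.81). The exons of all 6 genes had log2 ratios between −0.14 and 0.15.

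Several of the deepest regions had a model in 1 library only. In the library labelled knockdown these were led by NTSR1, the neurotensin receptor, with 1214 fragments in intron 1, where control had a longer unspliced model that touched a RefSeq exon. With its fragments spread evenly, 944 of them fell on the same bases. TRAF4, a signalling adaptor, with 528 fragments, met a control model of the same kind, with 446 on the same bases, and CTNNBL1, a spliceosome-associated protein, with 474, met a spliced model, with 370. At 3 of the 6 the control library had no assembled model. They were PRKDC, the catalytic subunit of DNA-dependent protein kinase, with 657 fragments in intron 68 at a level of 6.31, the PKM intron described above, and CEP170B, a centrosomal protein, with 536 in intron 2 at a level of 7.04. The exon levels of PRKDC were 87.7 in the library labelled knockdown and 84.8 in control, and those of CEP170B 25.5 and 27.6.

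The control-only regions had the same mix. DNAJC25, a co-chaperone, HMGA2, an architectural chromatin protein, and TOM1L1, an endosomal adaptor, each met an unspliced model of the library labelled knockdown that touched a RefSeq exon. On the same bases, again with fragments spread evenly, the library labelled knockdown had 1209 fragments and control 883 in DNAJC25, 677 and 686 in HMGA2, and 422 and 398 in TOM1L1. These counts are not scaled to the totals of the libraries. These 3 fell outside the rule in that library by their ends. FXR1, an RNA-binding relative of the fragile X protein, had 411 fragments in intron 15 of control, SSBP4, of a single-stranded DNA-binding family, 322 in intron 1 and PPIE, a spliceosomal cyclophilin, 312 in intron 7, with no assembled model in the library labelled knockdown. FXR1 exons stood at 24.5 in the library labelled knockdown and 24.8 in control, and PPIE exons at 21.3 and 20.3. SSBP4 exons stood at 4.27 in the library labelled knockdown and 17.4 in control, so the exon level was lower where the model was missing.

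The hosts with the most regions held them in a few introns. Fragment counts here and in the gene lists below are not scaled to the totals of the libraries or to model length. NFAT5, the transcription factor of the response to osmotic stress, had 17 regions in 2 of its 13 introns, with 12 models and 195 fragments in the library labelled knockdown and 16 models and 285 fragments in control. ZNF638, a nucleic-acid-binding zinc finger protein, had 16 regions in 4 introns, with 271 fragments in the library labelled knockdown and 194 in control. CORIN, the protease that activates atrial natriuretic peptide, had 16 regions in 3 introns and 14 models in each library, with 531 and 325 fragments. Levels of shared CORIN regions lay on both sides. They were 1.16 in the library labelled knockdown and 1.32 in control at 47525946 to 47532220, and 1.23 and 1.11 at 47507126 to 47512019. The CORIN exons were low in both, at 1.72 and 1.47. ATF7IP2, a relative of a partner of the histone methyltransferase SETDB1, had 15 regions, with 270 fragments in the library labelled knockdown and 171 in control. TTC19, an assembly factor of respiratory complex III, had all 15 regions in intron 7, with 8 models and 249 fragments in the library labelled knockdown and 15 models and 632 fragments in control. TTC19 exons stood at 24.7 and 25.3, and counting every model off the exons there were 381 fragments in the library labelled knockdown and 669 in control.

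Gene lists were read against the 10938 genes at a level of 1 or more in both libraries, of which 19.3% hosted a model in the library labelled knockdown and 18.97% in control. Among H2B ubiquitin genes 3 of 16 were hosts in each library. They were ATXN7, which ties the deubiquitinase to the SAGA complex, with 443 fragments in intron 1 in the library labelled knockdown and 384 in control, and the proteases USP3 and USP12 with 10 to 14 fragments. Of U1 and U2 snRNP proteins 3 of 23 were hosts in the library labelled knockdown and 5 in control. SF3B3, of the U2 particle, had 2 models with 358 fragments in intron 11 in the library labelled knockdown and none in control, where models off its exons held 42.8 fragments in all, against 418. SNRNP70, of the U1 particle, had a model with 238 fragments only in control, while in the library labelled knockdown an unspliced model touched its exons. Counting every model off its exons, SNRNP70 had 1430 fragments in the library labelled knockdown and 313 in control, the opposite order. SNRPA1 had 128 and 81 fragments and SNRPE 29 and 12. In SNRPA1 intron 3, where both libraries had models, the levels were 1.44 and 1.24 in the library labelled knockdown and 1.73 and 1.77 in control. The other SNRPA1 models lay in intron 8, with 72 fragments in the library labelled knockdown alone, and in intron 1, with 19 in control alone.

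The shares of the other lists of splicing and processing factors lay on both sides of those of all genes and rest on 1 to 3 hosts each. Of SR proteins and their kinases 3 of 19 were hosts in each library, with SRRM1 at 43 fragments in the library labelled knockdown and 21 in control, CLK1 at 23 and 14, CLK4 at 24 with no model in control, and CLK2 with a model of 15 fragments only in control. Genes with well-known detained or retained introns had 3 hosts of 11 in the library labelled knockdown and 2 in control, among them RBM39, a splicing factor, at 63 fragments and 25. The RBM39 models lay in different parts of intron 11 in the libraries. Counting every model off its exons, RBM39 had 1012 fragments in the library labelled knockdown and 840 in control. Of cleavage and polyadenylation factors 2 of 17 were hosts in the library labelled knockdown and 3 in control, with CPSF4 at 103 and 75.8 fragments, FIP1L1 at 37 with no model in control, and SYMPK at 28 and CPSF1 at 14 only in control. Hosts of intronic small nucleolar RNAs had 2 of 23 in the library labelled knockdown and 1 in control, SF3B3 and TNPO2, an importer of nuclear proteins, the second at 26 and 11 fragments.

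Long genes had 4 hosts of 11 in each library, TCF7L2, WWOX, PARD3 and RAD51B. TCF7L2, the main transcription factor of the Wnt pathway in the gut, had 11 models with 473 fragments in the library labelled knockdown and 2 models with 25 fragments in control. Of its 11 models, 10 lay in intron 4 between 114819252 and 114837032 on chromosome 10, at levels from 1.54 to 4.17, where control had no intronic unspliced model. Counting every model off its exons, TCF7L2 had 488 fragments in the library labelled knockdown and 36 in control, and its exons stood at 49.2 and 54.2. WWOX, an oxidoreductase at a fragile site, had 4 models in each library, with 178 and 253 fragments, all in intron 4. Counting every model off its exons, WWOX had 272 fragments in the library labelled knockdown and 253 in control, the opposite order. PARD3, a polarity protein, had 30 fragments in the library labelled knockdown and 100 in control, and RAD51B, a recombination protein named after its values were seen to complete the 4, 11 and 20. NAALADL2, whose exons stood below a level of 1, at 0.0611 in the library labelled knockdown and 0.0373 in control, and which is not among the 11, had 55 and 50 fragments.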

How the data were processed

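The deposited files were transcript assemblies, 1 per library. Per the submitters' processing notes, the build was hg18 and the tools were Cufflinks, TopHat with Bowtie, bedtools, Picard and SAMtools, with no version given in the sources used here. Per the labels' protocols, poly(A) RNA was sheared and copied with random hexamers, with no step that marks strand. Each model carried a deposited score and a value named FPKM with an interval. The authors' FPKM proved not to be divided by depth: read as the value ± 2 Poisson SD, the interval gave back a fragment number, whole within 0.02 in 20551 of 20555 loci with 1 model in the library labelled USP49 knockdown and 19345 of 19346 in control. For the intronic models it was whole in 90.9% and 91.6%. The numbers of the others were worked out from the deposited value and a shortened length, and were rounded for the intervals of ratios. Values are recovered fragments per kilobase of full length, per 1e6 fragments of the library.

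The host intron was the shortest NM_ intron holding the model, numbered as in the host transcript where that number was lowest. Models sharing 1 base were joined into regions. For gene levels the fragments of a model were shared out evenly along it, without strand, so overlapping and near-identical genes are uncertain. Of 41096 RefSeq accessions 39696 were named from the RefSeq table, 485 from the files and 915 by neither. Positions are 1-based hg18, and no genome of that build was used. Genes named are USP49, the 10 deepest shared regions, the 6 highest and 6 lowest ratios with 50 or more fragments, the 6 deepest regions of each library alone, the 5 hosts with most regions and up to 4 hosts per list. The members and lists were chosen with earlier results of these data known. No p-value was computed. The calculation was tested on simulated data. Python 3.11.15, numpy 2.4.6, pandas 2.3.3 and scipy 1.17.1 were used. Alternatives in length, fragments, overlap, distance to exons, intron choice, host level and scaling are given in the closing section.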

Additional observations from a re-analysis of the deposited data

How the results depend on the processing

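Of 55 values under other settings 27 moved by less than the counting interval (counts by less than 1.5 times) and 28 by more, none of the median positions or numbers of models among the second. For every moved value the cause was not tested beyond what the setting itself changes. The overlap share was 30.9% for the library labelled USP49 knockdown and 32.6% for control with 50% overlap of each model, and 53.8% and 58.3% against any assembled model. The median host level was 5.46 and 5.86 as the sum of the host's NM_ models, and 7.22 and 8.03 for models of at least 500 bases. The median intron length was 7605 and 7237.5 bases with the longest intron, and 7142 and 7057 for models at least 100 bases from an exon. The number of shared regions 2-fold or more higher was 62 with scaled deposited FPKM, 124 without scaling, 3 with at least 50 or 100 fragments, 8 with 50% overlap and 3 with lengths within 10%, and the number lower was 115, 52, 6 with at least 50 fragments, 2 with at least 100, 47 and 3. Counts under a stricter minimum rest on fewer regions. The median log2 ratio was 0.15 without scaling, which leaves the difference in depth in place, −0.093 with at least 50 fragments, −0.084 with at least 100, and −0.14 with 50% overlap. The last 2 settings on fragments and lengths (at least 100 fragments, lengths within 10%) were chosen after seeing the data. No paired analysis was possible because each group has 1 library and the labels give no replicate numbers. The median model rested on 19 fragments in the library labelled USP49 knockdown and 18 in control; the part of depth in whether a model appears was not tested.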
